A study of Mus musculus with 12 samples.

Results

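Metallothioneins and the zinc transport genes tied to them were followed in quadriceps muscle of dystrophic mice on 3 drug treatments or none. The 6 genes are the metallothioneins Mt1, Mt2 and Mt3, the zinc exporter Slc30a1 (also called ZnT1), the importer Slc39a14 (ZIP14) and the transcription factor Mtf1. They were found among 30412 transcript clusters that the platform annotation pairs with exactly 1 gene symbol. A transcript cluster is the array's set of probes for 1 gene. Where a gene had several clusters, the one with the highest mean over the 12 arrays was to be chosen by that signal, but each of the 6 had a single cluster, so no measured value entered the choice of cluster. The genes themselves were picked with earlier results of these data known.

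All 12 animals were male mice of genotype utrn+/-;mdx on the C57BL/10 background, sampled at 6 weeks of age, with 3 mice per group and 1 array per mouse. The first treated group received spironolactone at 100 mg/kg per day with lisinopril at 20 mg/kg per day in medicated pellets. The second received eplerenone at 200 mg/kg per day with the same dose of lisinopril, also in pellets. The third received prednisolone at 1.5 mg/kg per day in the drinking water, and the last group had normal chow and no drug. Treatment ran between 4 and 6 weeks of age, and the labels call the arrays of a group biological replicates. Every group, the untreated one included, lacks dystrophin and carries 1 functional utrophin allele, so no healthy muscle was part of the comparison. Spironolactone and eplerenone block the mineralocorticoid receptor, lisinopril inhibits the angiotensin-converting enzyme, and prednisolone is a synthetic glucocorticoid. Lisinopril was given in both combinations and never alone, so its part and that of the receptor blocker cannot be told apart. Prednisolone also differed in its route.

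Metallothioneins are small, cysteine-rich proteins that bind zinc and copper and buffer free zinc in the cell. Their genes are induced when zinc enters the cell: Mtf1 binds zinc, moves onto metal response elements in the promoters of Mt1 and Mt2, and also drives Slc30a1, whose product pumps zinc out. Glucocorticoids, interleukin-6 and oxidative stress are further inducers of Mt1 and Mt2, and Slc39a14, which brings zinc and iron into the cell, is known as an interleukin-6 target in liver. In skeletal muscle, metallothionein transcripts are known to rise in wasting. Mt3 is best known from brain.

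The promoters of Mt1, Mt2 and Slc30a1 are shown because these are the textbook targets of Mtf1 among the 6 genes, and they differed in how they varied over the groups. Each window holds 250 bases before and 50 bases after the gene's start, on the strand of the gene, from RefSeq on build GRCm38.p6. Capitals mark the core of the metal response element, TGCACNC or TGCGCNC, found on either strand, so that the reverse complement is in capitals where the match lies on the other strand. No match overlaps another. Mt1 lies at chr8:94178839-94179138, Mt2 at chr8:94172368-94172667 and Slc30a1 at chr1:191906531-191906830, all on the plus strand.
Mt1: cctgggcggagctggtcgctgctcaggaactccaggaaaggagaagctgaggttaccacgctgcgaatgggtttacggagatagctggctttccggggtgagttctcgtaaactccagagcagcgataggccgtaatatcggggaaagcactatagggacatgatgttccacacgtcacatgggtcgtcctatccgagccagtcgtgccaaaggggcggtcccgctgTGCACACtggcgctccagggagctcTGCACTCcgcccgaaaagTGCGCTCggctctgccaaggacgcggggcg
Mt2: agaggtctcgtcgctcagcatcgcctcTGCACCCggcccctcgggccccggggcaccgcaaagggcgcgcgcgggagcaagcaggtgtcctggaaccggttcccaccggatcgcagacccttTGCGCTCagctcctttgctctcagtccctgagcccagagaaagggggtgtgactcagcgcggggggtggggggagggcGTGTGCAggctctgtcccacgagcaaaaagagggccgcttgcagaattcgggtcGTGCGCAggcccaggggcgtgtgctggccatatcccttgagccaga
Slc30a1: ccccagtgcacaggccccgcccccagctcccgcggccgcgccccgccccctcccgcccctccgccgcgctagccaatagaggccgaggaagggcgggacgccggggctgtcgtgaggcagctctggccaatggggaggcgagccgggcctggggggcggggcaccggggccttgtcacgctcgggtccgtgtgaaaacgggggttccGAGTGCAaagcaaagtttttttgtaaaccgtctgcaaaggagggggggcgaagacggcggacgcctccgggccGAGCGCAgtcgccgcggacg

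The Mt1 window held 3 cores, beginning at positions -23, 3 and 21 from the RefSeq start. The Mt2 window held 4, beginning at -223, -128, -50 and 5, and the Slc30a1 window held 2, at -43 and 31. Of 32851 RefSeq promoters of the same 300 bases, 25.7% held at least 1 core, 7.11% at least 2, 1.97% at least 3 and 0.517% at least 4. Promoters were matched for 5 of the 6 genes: the Mt3 window held 1 core, at position 28, and the Mtf1 window 0. The hexamer AGAACA, a core of glucocorticoid receptor sites, searched on both strands, was in 19.0% of all promoters. It had 0 matches in the windows of Mt1, Mt2, Mt3 and Slc30a1 and 1 in that of Mtf1. A match is a stretch of letters and no measured binding. Whether transcription in these muscles begins at the RefSeq starts was not tested, and cores outside the windows were not counted. Mt4, Mt3, Mt2 and Mt1 lie on chromosome 8 in that order.

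The deposited values are log2 signals, and differences are differences of these values. Markers of skeletal muscle were bright on every array. The mean of 12 neutrophil markers ran between 6.19 and 6.86 with the spironolactone combination, 5.99 and 6.36 with the eplerenone combination, and 6.28 and 6.49 with prednisolone. In untreated muscle it was 6.75, 9.46 and 9.11 in replicates 1, 2 and 3, so untreated replicates 2 and 3 stood apart from every other array and from untreated replicate 1. The mean of 12 macrophage and monocyte markers ran between 12.2 and 12.6, 12.0 and 12.7, and 11.8 and 12.4 in the treated groups in the same order, against 12.5 to 13.3 in untreated muscle. Of the macrophage markers, 4 fell with prednisolone at the threshold used below, and 0 with either combination. Of the neutrophil markers, 3 fell with prednisolone and 0 with either combination. Of all clusters, 3.17% fell with prednisolone, and 0.0822% and 0.0296% passed with the spironolactone and the eplerenone combination. The median difference of the neutrophil markers was -1.64 and -2.13 with these combinations and -1.93 with prednisolone. For the macrophage markers it was -0.47, -0.38 and -0.69 in the same order. By limma at an unadjusted p under 0.05, 4 macrophage markers differed with each combination, and 9 and 10 neutrophil markers with the spironolactone and the eplerenone combination, where 16.2% and 13.4% of all clusters did. Of 6 fibroblast markers 2 fell with prednisolone, of 6 endothelial markers 1 did, and none of the muscle, adipocyte or erythroid markers passed against untreated muscle. The median difference of the 6 adipocyte markers was 1.58 and 0.59 with the spironolactone and the eplerenone combination and 1.21 with prednisolone. Their mean ran between 9.22 and 12.03, 9.14 and 10.18, and 9.33 and 11.44 in that order, against 8.68 to 9.41 in untreated muscle. Only 2 of 6 listed erythroid markers were measured. In whole muscle, fewer cells of a type and less RNA per cell cannot be told apart.

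Mt1 fell in muscle of mice on the spironolactone combination. Its log2 signal was 16.47, 16.75 and 16.71 with the spironolactone combination and 16.51, 16.59 and 16.59 with the eplerenone combination. It was 17.32, 17.01 and 17.32 with prednisolone, against 17.38, 17.78 and 18.12 in untreated muscle. All 9 treated arrays lay below all 3 untreated arrays, the 6 arrays of the combinations lay below the 3 of prednisolone, and the arrays of both combinations overlapped. The spironolactone combination differed from untreated muscle by -1.12 ± 0.17 on the log2 scale (SE, limma adjusted p = 0.0419), which is a 2.17-fold lower signal. This adjusted p comes from limma's moderated test, adjusted by Benjamini-Hochberg over all 30412 clusters, and a change was called at an adjusted p under 0.05.

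Mt1 showed a difference of -1.20 ± 0.17 with the eplerenone combination, which did not pass (SE, limma adjusted p = 0.0501). With prednisolone it was -0.54 ± 0.17, also not past the threshold (SE, limma adjusted p = 0.0799). With both combinations pooled against untreated muscle, Mt1 fell by 1.16 ± 0.14 (SE, limma adjusted p = 0.0156), a call that was lost without untreated replicate 2 (limma adjusted p = 0.0659) or without untreated replicate 3 (limma adjusted p = 0.0621). The call for the spironolactone combination lay close to the threshold. It was kept in 2 of 12 fits that left out 1 array, those without untreated replicate 1 and without replicate 3 of the spironolactone combination. Over these fits the adjusted p ran between 0.0036 and 0.162, and the difference between -1.31 and -0.93. The call was also lost without prednisolone replicate 1, 2 or 3, arrays outside this comparison (limma adjusted p = 0.0829, 0.0685 and 0.0806). The difference then stayed at -1.12. With untreated replicate 1 as the only untreated array, the spironolactone difference was -0.74 and did not pass (limma adjusted p = 0.325). In none of the 22 alternative settings did the direction of Mt1 turn, in any of the comparisons with untreated muscle. The neutrophil markers above were highest in the same 2 untreated arrays that had the highest Mt1, and their part in the Mt1 result was not tested beyond these values.

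Mt2, whose protein is the partner of Mt1 in most tissues, was lower with the spironolactone combination than with prednisolone. Its log2 signal was 17.55, 18.34 and 18.17 with the spironolactone combination, 17.93, 18.01 and 18.68 with the eplerenone combination, 19.44, 19.17 and 19.28 with prednisolone, against 18.98, 19.46 and 19.62 in untreated muscle. All 6 arrays of the combinations lay below the 6 others, and prednisolone overlapped with untreated muscle. How many of all clusters separate in this way was not counted. Against prednisolone, Mt2 fell with the spironolactone combination by 1.28 ± 0.25 (SE, limma adjusted p = 0.0439), a 2.43-fold lower signal. With the eplerenone combination the difference from prednisolone was -1.09 ± 0.25 and did not pass (SE, limma adjusted p = 0.0856).

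Against untreated muscle the Mt2 differences were -1.34 ± 0.25 with the spironolactone combination (SE, limma adjusted p = 0.0948) and -1.15 ± 0.25 with the eplerenone combination (SE, limma adjusted p = 0.15). Neither passed, although no array overlapped. For both combinations together the difference was -1.24 ± 0.21 (SE, limma adjusted p = 0.0514). With prednisolone the Mt2 difference from untreated muscle was -0.06, with a 95% interval of -0.60 to 0.49. That interval does not show that the levels were alike. The Mt2 call between the spironolactone combination and prednisolone was kept in 2 of 12 fits without 1 array, those without untreated replicate 1 and without replicate 3 of the eplerenone combination, with an adjusted p between 0.0385 and 0.158. Mt2 is among the brightest clusters: on the 3 prednisolone arrays it lay 0.47, 0.75 and 0.63 below the highest value on the array, and on the 3 untreated arrays 0.94, 0.45 and 0.29 below it. Whether signal saturates there was not tested.

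**Figure D1:**
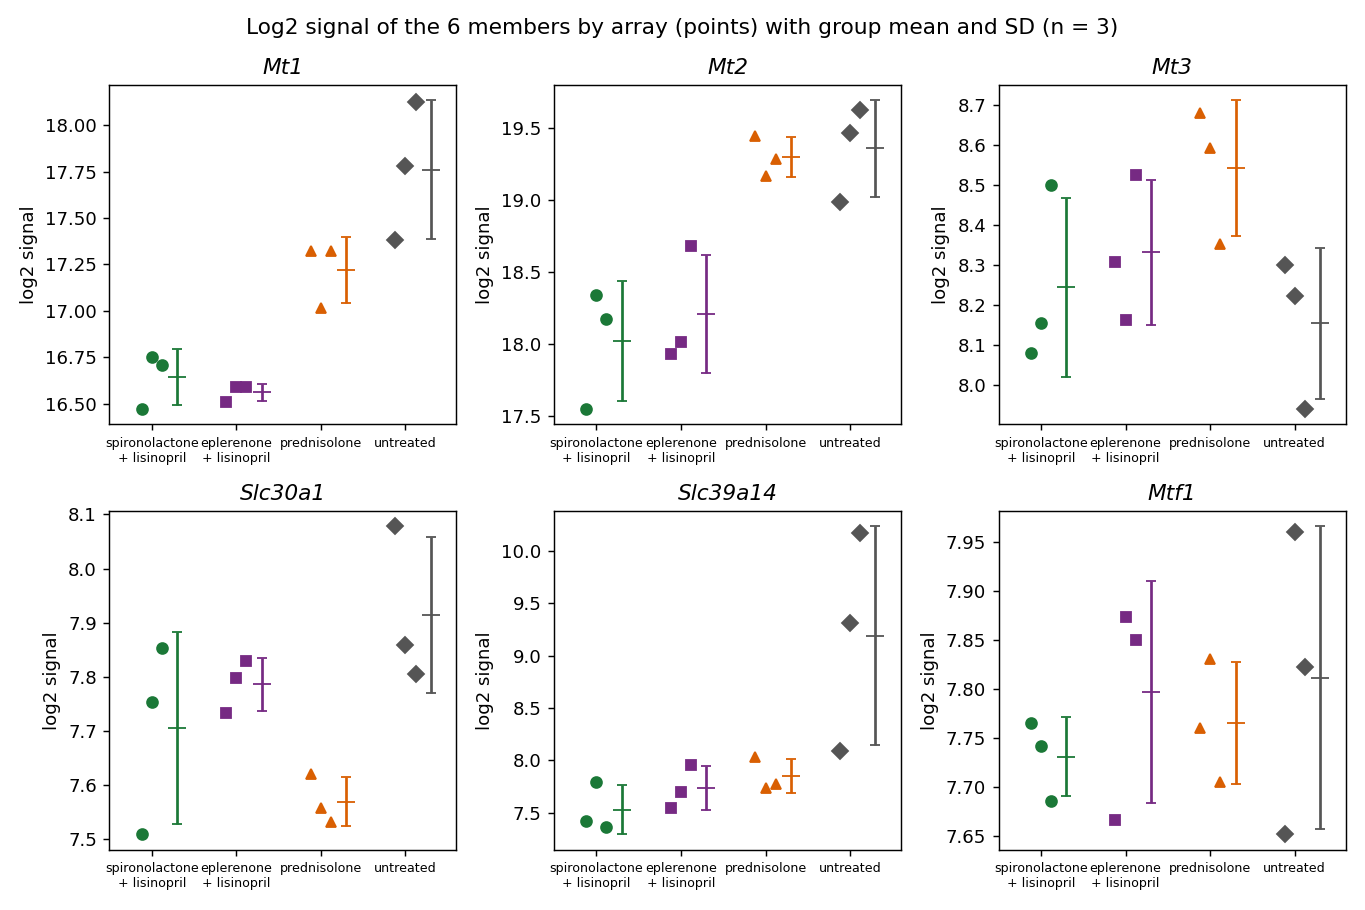
Log2 signal of the 6 genes, 1 panel each, with 1 point per array and the mean and SD of the 3 arrays of a group as a bar beside them. In the Mt1 panel all treated arrays lie below the untreated ones, in the Mt2 panel only the combinations do, and in the Slc39a14 panel untreated replicate 1, at 8.09, lies near the treated arrays.

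The spironolactone and eplerenone combinations were matched in lisinopril dose, route and age, with the receptor blocker given at 100 and 200 mg/kg per day. Both blockers are spirolactone steroids, and eplerenone carries an epoxide that spironolactone lacks. The spironolactone combination minus the eplerenone combination gave 0.08 for Mt1 (95% interval -0.28 to 0.45) and -0.19 for Mt2 (95% interval -0.73 to 0.36). For the other 4 genes the difference ran between -0.21 and -0.07. None of the 6 passed limma's test between the combinations (all adjusted p = 0.998), and 0 had an unadjusted p under 0.05. Of all clusters, 0% passed in that comparison and 4.49% had an unadjusted p under 0.05. The intervals leave room for differences of the widths given, so equal action is not shown. The doses of the blockers differed.

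Mt3 had no call in any comparison. It read 8.08, 8.16 and 8.50 with the spironolactone combination, 8.31, 8.16 and 8.52 with the eplerenone combination, 8.68, 8.59 and 8.35 with prednisolone, against 8.30, 8.22 and 7.94 in untreated muscle. Every prednisolone array was above every untreated array, while the combinations overlapped with untreated muscle. The prednisolone difference of 0.39 ± 0.15 did not pass (SE, limma adjusted p = 0.152). The differences were 0.09 with the spironolactone combination and 0.18 with the eplerenone combination (limma adjusted p = 0.78 and 0.623).

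Slc30a1, the exporter, had its lowest group mean with prednisolone and no call. Its log2 signal was 7.51, 7.75 and 7.85 with the spironolactone combination, 7.73, 7.80 and 7.83 with the eplerenone combination, 7.62, 7.56 and 7.53 with prednisolone, against 8.08, 7.86 and 7.80 in untreated muscle. Every prednisolone array was below every untreated array, and both combinations overlapped with untreated muscle. The prednisolone difference was -0.35 ± 0.10 and did not pass (SE, limma adjusted p = 0.0738). With the spironolactone and the eplerenone combination it was -0.21 and -0.13 (limma adjusted p = 0.335 and 0.609).

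Slc39a14, the importer, had the widest spread of the 6 genes. Its log2 signal was 7.42, 7.80 and 7.36 with the spironolactone combination, 7.55, 7.70 and 7.96 with the eplerenone combination and 8.03, 7.73 and 7.78 with prednisolone. In untreated muscle it was 8.09, 9.31 and 10.17, an SD of 1.05. All 9 treated arrays lay below all 3 untreated ones, and untreated replicate 1 lay close to the treated arrays. The difference from untreated muscle was -1.66 ± 0.39 with the spironolactone combination (SE, limma adjusted p = 0.151). It was -1.46 ± 0.39 with the eplerenone combination (SE, limma adjusted p = 0.213) and -1.34 ± 0.39 with prednisolone (SE, limma adjusted p = 0.0681). None of these passed.

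The size of the Slc39a14 result moved with single untreated arrays. Without untreated replicate 1 the differences were -2.21, -2.01 and -1.90 for the spironolactone combination, the eplerenone combination and prednisolone, and all 3 passed (limma adjusted p = 0.0036, 0.00557 and 0.00255). Without untreated replicate 3 they were -1.17, -0.97 and -0.85 in the same order (limma adjusted p = 0.27, 0.372 and 0.16), and without untreated replicate 2 they were -1.60, -1.40 and -1.28, with none past the threshold. With untreated replicate 1 alone they were -0.56, -0.36 and -0.24, and none passed. Untreated replicate 1 is also the untreated array with neutrophil markers at 6.75, near the treated arrays, and the part of these cells in the Slc39a14 signal was not tested.

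Mtf1, the zinc sensor, read 7.77, 7.74 and 7.69 with the spironolactone combination, 7.67, 7.87 and 7.85 with the eplerenone combination, 7.76, 7.83 and 7.71 with prednisolone, against 7.65, 7.96 and 7.82 in untreated muscle. The groups overlapped throughout. Its differences from untreated muscle were -0.08, -0.01 and -0.05 in the order of the treatments, with limma adjusted p-values of 0.682, 0.964 and 0.839. The 95% interval for the spironolactone combination ran between -0.29 and 0.13, so a change of the size seen for Mt1 lies outside it.

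**Figure D2:**
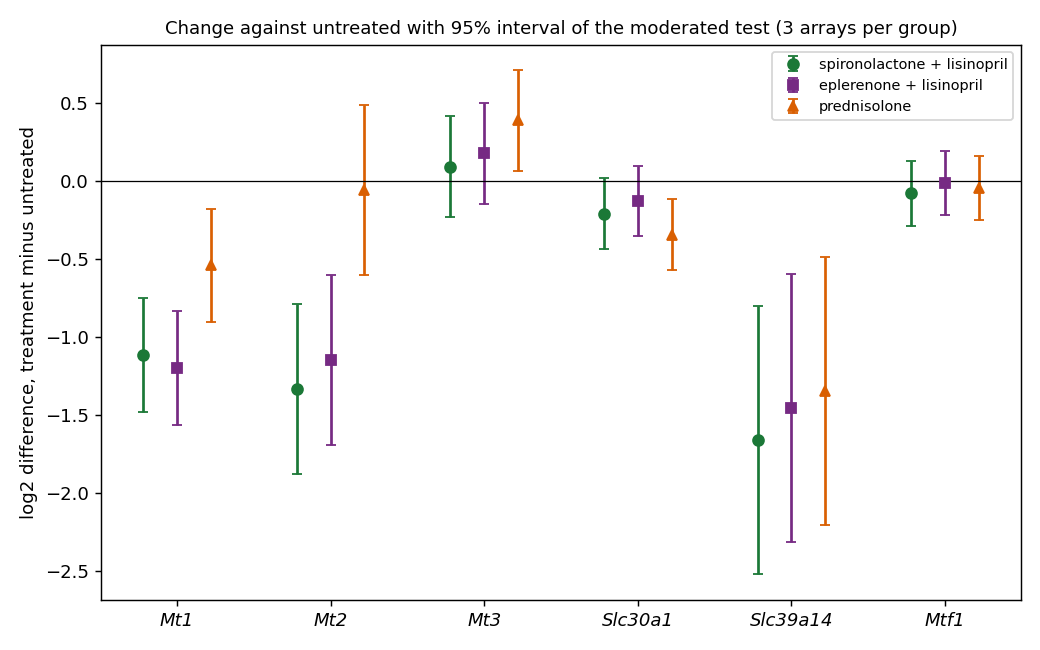
Log2 difference of each treatment from untreated muscle for the 6 genes, with the 95% interval of limma's moderated test on 3 arrays per group. Mt1 and Mt2 lie below 0 with both combinations, Mt2 with prednisolone lies at -0.06, and Mtf1 lies near 0 with all 3 treatments.

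Counted over the 6 genes with limma, 1 (Mt1) passed with the spironolactone combination against untreated muscle, where 0.0822% of all clusters passed. With the eplerenone combination 0 of the 6 passed, where 0.0296% of all clusters did, and 3 had an unadjusted p under 0.05 (Mt1, Mt2 and Slc39a14), as did 13.4% of all clusters. With prednisolone 0 passed, against 6.39% of all clusters (3.22% higher and 3.17% lower), and 4 had an unadjusted p under 0.05 (Mt1, Mt3, Slc30a1 and Slc39a14), as did 21.6% of all clusters. With both combinations together 1 passed (Mt1), against 0.224% of all clusters. Between the spironolactone combination and prednisolone 1 passed (Mt2), against 0.822%. Between the eplerenone combination and prednisolone 0 passed, against 0.608%, and 2 had an unadjusted p under 0.05 (Mt1 and Mt2), as did 12.5% of all clusters. A limma F-test over the 4 groups called 2 of the 6, Mt1 (adjusted p = 0.0149) and Mt2 (adjusted p = 0.0273), where it called 1.93% of all clusters. The Mt1 call of the F-test was lost without prednisolone replicate 1 or without replicate 2 (limma adjusted p = 0.0543 in each), and the Mt2 call in 6 of the 12 fits without 1 array (limma adjusted p up to 0.0979).

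Groups that lay wholly below untreated muscle were common across the array. With the spironolactone combination 3 of the 6 genes did so (Mt1, Mt2 and Slc39a14), against 13.1% of all clusters. With the eplerenone combination the same 3 did, against 9.23% of all clusters, and with prednisolone 3 did (Mt1, Slc30a1 and Slc39a14), against 13.3%. These 3 comparisons share the untreated arrays, so they are not independent. At a fold of at least 2, the threshold the study's design names and used here without a test, 3 of the 6 genes (Mt1, Mt2 and Slc39a14) were lower with each combination and 1 (Slc39a14) with prednisolone. Of all clusters, 0.572% were at least 2-fold lower with the spironolactone combination, 0.483% with the eplerenone combination and 1.17% with prednisolone.

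Mt1 and Mt2 were also set against each other within each array. The Mt1 minus Mt2 difference within an array was -1.08, -1.59 and -1.46 with the spironolactone combination, -1.42, -1.43 and -2.09 with the eplerenone combination, -2.12, -2.15 and -1.96 with prednisolone, against -1.60, -1.68 and -1.50 in untreated muscle. All 3 prednisolone arrays lay below all 3 untreated ones. This measure was added after the values were seen. An exact two-sided permutation test over the 4 groups gave p = 0.0566. Prednisolone minus untreated gave -0.48 (exact permutation p = 0.1, the smallest that 3 against 3 arrays allow), and all 6 pairwise exact p-values were at least 0.1. The difference is between 2 clusters of unequal probe response, so its sign says nothing about which transcript is more abundant.

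Across the 12 arrays, Mt1 and Mt2 varied together with a Pearson r of 0.88 (permutation p = 0.00015, 0.0015 after Benjamini-Hochberg over the 15 pairs of the 6 genes) and a Spearman rho of 0.92 (permutation p = 0.00012). Without the 2 arrays farthest from the median of Mt1, untreated replicates 2 and 3, r was 0.89. Because the arrays fall into 2 sets of Mt1 values, the 6 arrays of the combinations below the 6 others, r was also taken within each: it was 0.59 in the combinations and 0.72 in the others. After subtracting group means r was 0.71. The points share their arrays.

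Slc39a14 followed Mt1 with an r of 0.87 (permutation p = 0.0002, adjusted 0.0015) and a rho of 0.82 (permutation p = 0.00173). Without untreated replicates 2 and 3 that r was 0.66 (permutation p = 0.0433). It was 0.19 in the 6 arrays of the combinations and 0.97 in the 6 others, so the relation rests on the prednisolone and untreated arrays. There Slc39a14 ran between 8.09 and 10.17 in untreated muscle, and between 7.73 and 8.03 with prednisolone. After subtracting group means, the r of Mt1 with Slc39a14 over 12 arrays was 0.89. Mt2 and Slc39a14 gave an r of 0.69 (permutation p = 0.00443, adjusted 0.0221). The other 12 pairs had adjusted p-values of at least 0.394. The permutations moved values freely among the arrays used, so the permutation p-values also take in differences between groups.

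**Figure D3:**
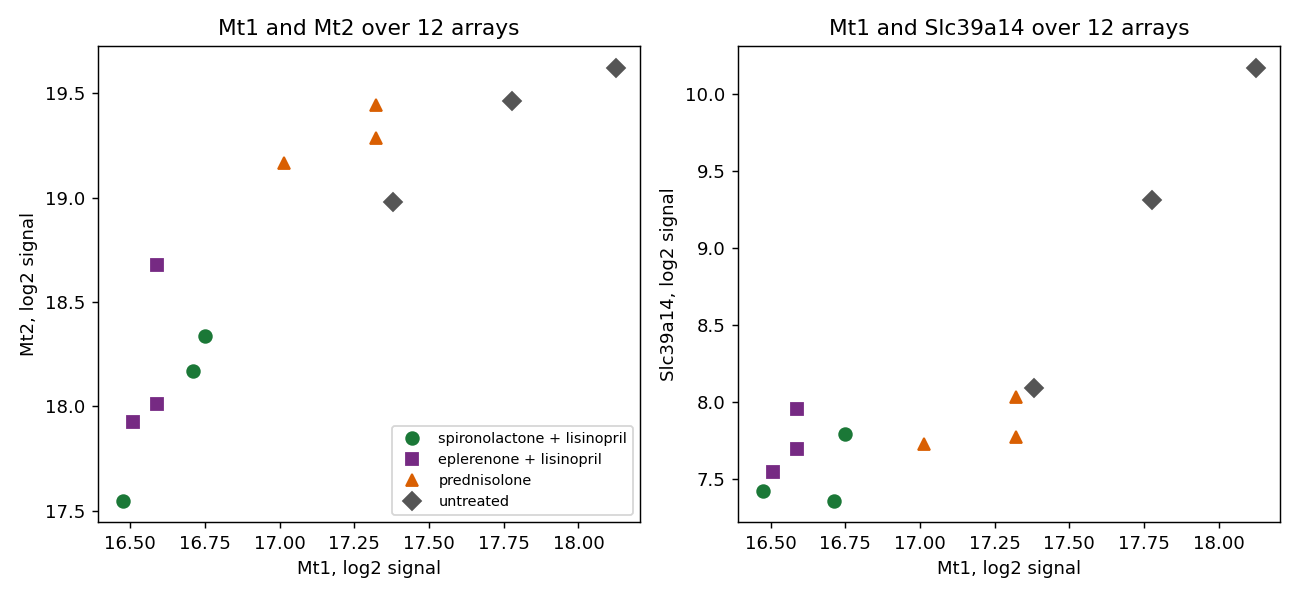
Log2 signal of Mt2 (left) and Slc39a14 (right) against that of Mt1, 1 point per array. The 6 arrays of the combinations sit at Mt1 values of 16.47 to 16.75, and untreated replicates 2 and 3 carry the highest Mt1 and Slc39a14 values.

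Among clusters with 1 symbol, outside the 6 genes and predicted or small RNA genes, those whose signal was most like Mt1 over the 12 arrays were Zdhhc23 (r = 0.91), Itpkc (0.90), Vmn2r17 (0.90), Adcy1 (0.89) and Pvt1 (0.89). Those most like Mt2 were Il20rb (r = 0.96), Nos1ap (0.90), Fermt1 (0.90), Pinc (0.90) and Pdk4 (0.90). Vmn2r17, Adcy1, Fermt1 and Pinc were dim, with all group means below the array medians of 5.70 to 5.81. The group means of Il20rb ran only between 6.21 and 6.36. Pdk4, the kinase that shuts pyruvate dehydrogenase, averaged 14.68 with the spironolactone combination, 15.02 with the eplerenone combination and 17.49 with prednisolone, against 16.31 in untreated muscle. Like Mt2 it was lower with both combinations than with prednisolone, but its prednisolone mean was above that of untreated muscle. These genes were picked as the highest of 30412 correlations, so the r values are a description.

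The remaining zinc transporters showed few calls, all with prednisolone against untreated muscle or in comparisons with prednisolone. Exporters of the Slc30 family move zinc out of the cytosol, and importers of the Slc39 family move it in. Of 22 other family members measured, 9 exporters and 13 importers, 1 rose and 2 fell with prednisolone against untreated muscle, and 0 passed with either combination (limma, with 3 members at an unadjusted p under 0.05 for the spironolactone combination and 2 for the eplerenone combination). Over all clusters 3.22% rose and 3.17% fell with prednisolone, and 16.2% and 13.4% had an unadjusted p under 0.05 with the spironolactone and the eplerenone combination. The median difference of the 22 was -0.14 with the spironolactone combination, -0.10 with the eplerenone combination and -0.06 with prednisolone, beside medians of -0.04, -0.03 and -0.01 for all clusters.

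Slc30a2, an exporter known from zinc secretion into milk and vesicles, rose with prednisolone. Its log2 signal was 6.24, 6.15 and 5.96 with the spironolactone combination, 6.31, 6.23 and 6.33 with the eplerenone combination, 8.31, 7.79 and 7.33 with prednisolone, against 6.44, 6.39 and 7.17 in untreated muscle. The prednisolone arrays were above all others. The prednisolone difference from untreated muscle was 1.14 ± 0.24 (SE, limma adjusted p = 0.0216). The spironolactone combination minus prednisolone gave -1.69 (limma adjusted p = 0.0171), and the eplerenone combination minus prednisolone gave -1.52 (limma adjusted p = 0.0253).

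Slc30a5 and Slc30a7, which load zinc into the secretory pathway, fell with prednisolone. Slc30a5 read 10.18, 10.12 and 9.86 with the spironolactone combination, 9.99, 9.90 and 9.90 with the eplerenone combination and 9.49, 9.26 and 9.56 with prednisolone, against 9.84, 10.16 and 10.11 in untreated muscle. With prednisolone it differed from untreated muscle by -0.60 ± 0.12 (SE, limma adjusted p = 0.0164), and the spironolactone combination was higher than prednisolone by 0.62 (limma adjusted p = 0.0438). Slc30a7 differed by -0.42 ± 0.09 with prednisolone (SE, limma adjusted p = 0.0214). The number of these exporter calls moved when 1 array was left out. The count of 3 transporters with prednisolone became 6 without untreated replicate 1, 0 without untreated replicate 2, 1 without untreated replicate 3, and 0 without prednisolone replicate 1 or without replicate 2. Of the importers none passed, and Slc39a6 (-0.48, limma adjusted p = 0.0719) and Slc39a12 (-0.44, limma adjusted p = 0.0763) came nearest, both with prednisolone.

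**Figure D4:**
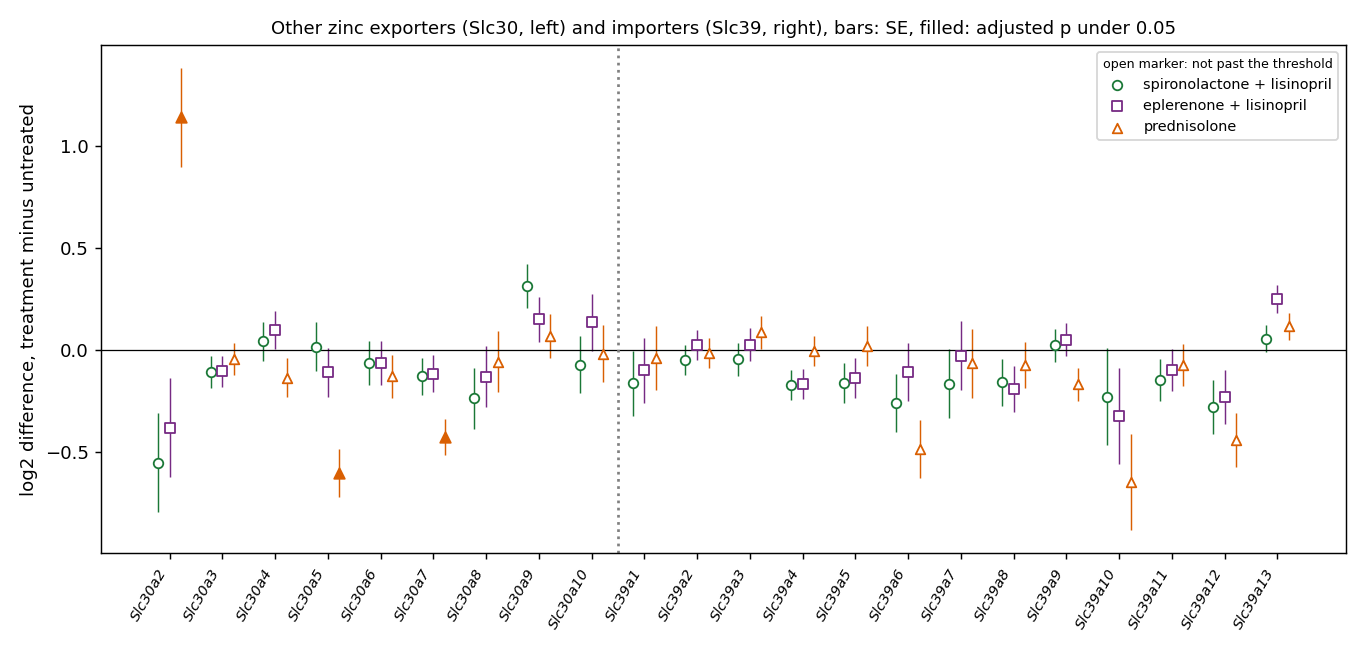
Log2 difference of each treatment from untreated muscle for 9 other zinc exporters (left of the dotted line) and 13 other importers, with the SE as a bar. Filled markers passed at an adjusted p under 0.05: Slc30a2 at 1.14, Slc30a5 at -0.60 and Slc30a7 at -0.42, all with prednisolone.

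Mt4, the metallothionein known from squamous epithelia, was measured too and is given although it did not pass against untreated muscle; it was chosen after its values were seen. Its log2 signal was 4.34, 4.53 and 4.33 with the spironolactone combination, 4.53, 4.59 and 4.48 with the eplerenone combination, 4.87, 4.99 and 4.85 with prednisolone, against 5.04, 4.95 and 4.78 in untreated muscle. All 6 arrays of the combinations were below the 6 others, as for Mt2. Every Mt4 value lay below the medians of the arrays, which ran between 5.70 and 5.81, so Mt4 is a dim cluster. The share of all clusters that separate in this way was not counted. The spironolactone combination minus prednisolone was -0.50 (limma adjusted p = 0.0396), while the spironolactone combination minus untreated was -0.53 and did not pass (limma adjusted p = 0.0755). Among the 9 measured metal-response genes other than the 6, 1 fell with prednisolone (against 3.17% of all clusters), Hif1a at -1.38 (limma adjusted p = 0.0179), and 0 passed with either combination (2 and 4 at an unadjusted p under 0.05 for the spironolactone and the eplerenone combination). Of all clusters, 16.2% and 13.4% had an unadjusted p under 0.05 with the spironolactone and the eplerenone combination. Hif1a encodes the oxygen-regulated transcription factor subunit. In copper handling, Atp7a, the copper-exporting ATPase, fell with prednisolone, at -0.55 (limma adjusted p = 0.0342), the 1 call among 15 genes. In iron handling, 1 of 17 genes fell with prednisolone: Hmox1, the heme oxygenase, at -1.55 (limma adjusted p = 0.0394). The counts of calls in the copper and iron lists are near the 6.39% of all clusters called with prednisolone, and by themselves say nothing particular of these lists. At an unadjusted p under 0.05 by limma, 4 of the 15 copper genes and 8 of the 17 iron genes differed with prednisolone, beside 21.6% of all clusters. No gene of either list passed with a combination by limma. With the spironolactone combination 1 copper gene and 5 iron genes had an unadjusted p under 0.05, beside 16.2% of all clusters. With the eplerenone combination 3 and 4 did, beside 13.4%.

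Known inducers of Mt1 and Mt2 were read in the same muscles. Il6, the cytokine, was 4.52, 4.56 and 5.18 with the spironolactone combination, 4.96, 4.75 and 5.04 with the eplerenone combination and 4.49, 4.66 and 4.85 with prednisolone, against 6.47, 6.50 and 7.55 in untreated muscle. All treated arrays were below the untreated ones. The treated Il6 values also lay below the array medians of 5.70 to 5.81, so Il6 was dim on those arrays. It fell with the spironolactone combination, at -2.09 (limma adjusted p = 0.028), and with prednisolone, at -2.18 (limma adjusted p = 0.0032), and the eplerenone difference of -1.93 did not pass (limma adjusted p = 0.0501). Of the 15 measured genes of the interleukin-6 and Stat3 arm, 5 fell with prednisolone (Il6, Osm, Jak1, Stat3 and Cebpb). With the spironolactone combination 1 fell, and with the eplerenone combination 0 did. Of all clusters 3.17% fell with prednisolone, and 0.0822% and 0.0296% passed with the spironolactone and the eplerenone combination. By limma, 13, 9 and 10 of the 15 had an unadjusted p under 0.05 with prednisolone, the spironolactone and the eplerenone combination. Of all clusters 21.6%, 16.2% and 13.4% did, in the same order. Osm lay below the array medians on every array, so it was dim. Stat3 differed by -0.91 with prednisolone (limma adjusted p = 0.0394). The median of the 15 was -0.46 with the spironolactone combination, -0.44 with the eplerenone combination and -0.63 with prednisolone.

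Nfe2l2, the oxidative stress factor, was 9.73, 9.73 and 9.66 with the spironolactone combination, 9.74, 9.70 and 9.64 with the eplerenone combination and 9.43, 9.37 and 9.55 with prednisolone, against 10.30, 10.61 and 10.40 in untreated muscle. It fell with all 3, with differences of -0.73, -0.75 and -0.99 (limma adjusted p = 0.028, 0.0254 and 0.00097). Of the 10 measured genes of its arm, 3 fell with prednisolone, against 3.17% of all clusters. Among them was Gsr, glutathione reductase, at -0.74 (limma adjusted p = 0.0353). Nfe2l2 was the only call with each combination, where 0.0822% and 0.0296% of all clusters passed with the spironolactone and the eplerenone combination. By limma, 4, 6 and 6 of the 10 had an unadjusted p under 0.05 with the spironolactone combination, the eplerenone combination and prednisolone. Of all clusters, 16.2%, 13.4% and 21.6% did. The median of the 10 was -0.35, -0.59 and -0.73 in the order of the treatments.

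Glucocorticoid-linked genes did not rise together with prednisolone in these muscles. Of the 12 genes, 5 fell against untreated muscle: Tsc22d3 (-1.81, limma adjusted p = 0.00883), Per1 (-3.37, limma adjusted p = 0.00769), Cebpd (-3.10), Ddit4 (-2.99) and Dusp1 (-2.12). None rose past the threshold. Of all clusters 3.17% fell and 3.22% rose with prednisolone. Fkbp5, a co-chaperone of steroid receptors, differed by 0.65 (limma adjusted p = 0.257), and Nr3c1, the glucocorticoid receptor, by -0.30 (limma adjusted p = 0.282). With either combination 0 of the 12 passed, with 3 at an unadjusted p under 0.05 for the spironolactone combination and 4 for the eplerenone combination. Of all clusters, 16.2% and 13.4% had such a p with these combinations. The median of the 12 was -0.52 with the spironolactone combination, -0.55 with the eplerenone combination and -0.67 with prednisolone.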

How the data were processed

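RNA of 12 quadriceps muscles was hybridised to Affymetrix arrays, 1 mouse per array. The authors deposited log2 values per transcript cluster, and the submitters' processing notes name RMA, Affymetrix Expression Console and Transcriptome Analysis Console for them. Program versions and the genome build were not given in these sources. The file has 65587 clusters, and between 1.27% and 1.34% of values per array lie above 16, the highest log2 a 16-bit scanner can give, so they were rescaled in a step not described. Some 32530 clusters are in the platform annotation, 30412 with 1 symbol and 2118 with several. Symbols of 827 clusters were updated through the gene ID, with 22630 IDs found. Clusters without exactly 1 symbol were left out, and dim clusters were kept.

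The 4 group means were estimated in 1 fit of the 12 arrays with limma (version 3.58.1, under R 4.3.3; 8 residual and 2.94 prior degrees of freedom, median SE 0.13), after reading with data.table (version 1.17.8). Tests were two-sided, without an intensity trend, and adjusted by Benjamini-Hochberg over the 30412 clusters. The fit was tested on simulated data. With 3 arrays per group, the number of arrays limits precision. Correlations used 100000 permutations (numpy 2.4.6, Python 3.11.15), and figures matplotlib 3.10.9. The 6 genes, the lists of zinc, metal, copper, iron, glucocorticoid, interleukin-6 and oxidative stress genes and the cell type markers were chosen with earlier results of these data known. Named were all 6 genes, list members past the threshold against untreated muscle (or the 2 with the smallest p), the 5 genes most like Mt1 and Mt2, and Il6, Fkbp5, Tsc22d3, Per1 and Nr3c1. Mt4 lies outside this rule and was added as the remaining metallothionein. Lists share members. After subtracting group means, same-numbered arrays of different groups had a median r of 0.02 (18 pairs, r between -0.24 and 0.16). Pairs with other numbers had a median r of -0.01. The main fit took the replicate numbers as unpaired, and whether same-numbered mice shared a batch was not tested. Alternatives covered normalization, filter, variance model, array weights, clusters tested, groups fitted and leaving out each array.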

Additional observations from a re-analysis of the deposited data

How the results depend on the processing

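Results for the 6 genes were recomputed under 22 alternatives, 12 of them leaving out 1 array. Mt1 kept its sign in all of them in each comparison, and Mt2 kept its sign with both combinations against untreated muscle and against prednisolone. Mt1 with the spironolactone combination passed in 6 of the 22 (limma adjusted p = 0.0036 to 0.325), Mt2 against prednisolone in 8 (0.0219 to 0.158), and Mt1 for both combinations together in 18. The limma F-test called Mt1 in 18 of 21 alternatives and Mt2 in 14 of 21. The correlation of Mt1 with Mt2 stayed past its threshold in every alternative run. Unless a value shows it, the cause of a change was not tested.

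Of the 6 genes, the number past the threshold with the spironolactone combination against untreated muscle was 0 with quantile normalization, equal array medians, all clusters tested, only the groups compared, or untreated replicate 1 as the only untreated array, and 3 at a fold of at least 2. With the eplerenone combination it was 1 with dim clusters left out, an intensity trend or array weights, and 3 at a fold of at least 2. With prednisolone it was 3 with dim clusters left out, 2 with array weights and 1 at a fold of at least 2. For both combinations together it was 2 with dim clusters left out or an intensity trend, 0 with only the groups compared or untreated replicate 1 alone, and 3 at a fold of at least 2. Against prednisolone it was 0 for the spironolactone combination with all clusters, only the groups compared or untreated replicate 1 alone, and 1 for the eplerenone combination with untreated replicate 1 alone or at a fold of at least 2. The F-test called 0 with untreated replicate 1 alone. Other zinc transporters past the threshold with prednisolone numbered 5 with array weights, 0 with only the groups compared or untreated replicate 1 alone, and 1 at a fold of at least 2.

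The fit with a replicate block called 0 of the 6 genes for the spironolactone combination against untreated muscle (Mt1 limma adjusted p = 0.0662) and 0 against prednisolone (Mt2 limma adjusted p = 0.0527). It called 2 for both combinations together (Mt2 limma adjusted p = 0.049). The labels name no pairing of same-numbered mice, and whether such mice shared a batch was not tested.

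Leaving out 1 array gave 0 to 3 calls among the 6 genes for each combination, for both together and for the F-test, 0 to 2 for prednisolone, 0 to 1 for each combination against prednisolone, and 0 to 6 for the other transporters with prednisolone. Signs turned for these values. Quantile normalization gave 0.013 for Mt2 with prednisolone against untreated and -0.0090 for Mtf1 with the eplerenone combination against prednisolone. Equal array medians gave Mtf1 differences of 0.017 with the eplerenone combination against untreated and 0.028 for the spironolactone combination against prednisolone. With untreated replicate 1 alone, Mt2 with prednisolone was 0.32. Mtf1 was then 0.079, 0.14 and 0.11 with the spironolactone combination, the eplerenone combination and prednisolone, and 0.11 with both combinations together. Mt3 was -0.057 with the spironolactone combination and -0.013 with both together. Leaving out 1 array, Mt2 ranged between -0.24 and 0.076 with prednisolone and between -0.35 and 0.049 for the spironolactone minus the eplerenone combination. Mt3 ranged between -0.037 and 0.17 with the spironolactone combination and between -0.21 and 0.0087 for the spironolactone minus the eplerenone combination, and Slc30a1 in that last comparison between -0.16 and 0.017. Mtf1 ranged between -0.13 and 0.028 with prednisolone, -0.095 and 0.060 with the eplerenone combination, -0.13 and 0.027 with both together, and -0.0068 and 0.096 for the eplerenone combination minus prednisolone.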

Other observations

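Lcn2, the iron-carrier-binding lipocalin 2, and Serpina3n, an acute-phase protease inhibitor, had all prednisolone arrays above all arrays of the combinations, as Mt2 did. Unlike for Mt2, untreated replicate 1 lay within the values of the combinations. Both genes were chosen after their values were seen, and the share of all clusters that separate in this way was not counted. Of all clusters, 0.822% and 0.608% passed between prednisolone and the spironolactone or the eplerenone combination. Lcn2 read 5.57, 5.66 and 5.12 with the spironolactone combination, 5.33, 5.29 and 5.61 with the eplerenone combination and 9.44, 8.12 and 7.97 with prednisolone, against 5.58, 6.96 and 7.65 in untreated muscle. The prednisolone arrays were above all others. The spironolactone combination minus prednisolone was -3.06 (limma adjusted p = 0.0244) and the eplerenone combination minus prednisolone was -3.10 (limma adjusted p = 0.0221). Prednisolone minus untreated was 1.78 and did not pass (limma adjusted p = 0.0537).

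Serpina3n read 12.62, 11.94 and 11.92 with the spironolactone combination, 11.28, 11.42 and 12.58 with the eplerenone combination and 15.31, 14.46 and 14.51 with prednisolone, against 11.92, 13.64 and 14.60 in untreated muscle. The prednisolone arrays were above all arrays of the combinations and overlapped with untreated muscle. The differences from prednisolone were -2.60 for the spironolactone combination and -3.00 for the eplerenone combination, and neither passed (limma adjusted p = 0.0646 and 0.0503).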
